A study of Rattus norvegicus with 13 samples.

Results

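The broad domains described here were the 389 control H3K4me2 peaks at least 2000 bp wide, of 42672 peaks in the control list of rat aortic smooth muscle cells (SMC). They were chosen by their width in that list, so their width and their place in the control list are a description and not a finding. H3K4me2 was mapped by CUT&Tag, a method that cuts and sequences the DNA beside an antibody's target. The mark was mapped in cells carrying Myocd-LSD1 (3 samples), in cells carrying Myocd-LSD1NF (3 samples) and in control cells, whose line is labelled WT (3 samples). FLAG was mapped in cells carrying FLAG-tagged Myocd-LSD1 (4 samples). All lines were aortic SMC grown in the same serum-containing medium. The labels do not say what NF stands for, how the fusions are expressed, or whether the samples of a line came from separate cultures.

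H3K4me2, dimethylated lysine 4 of histone H3, lies on the nucleosomes that flank active and poised transcription start sites (TSSs) and on enhancers. LSD1, encoded by Kdm1a, is a demethylase that can remove it, and myocardin, encoded by Myocd, works with serum response factor to switch on the contractile genes of smooth muscle. Most peaks of the mark are a few nucleosomes wide, while broad H3K4 methylation domains are known from promoters of cell identity genes.

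Each line was represented by 1 peak list, so the comparison of the lists has no replicate error. The range given in brackets beside a share is its 95% binomial interval (exact, Clopper-Pearson). It covers counting error alone, and peaks of 1 list are not replicates. The replicated comparison in the files is the authors' deposited table of sites that differ between Myocd-LSD1 and Myocd-LSD1NF cells. The lists held 42405 peaks in Myocd-LSD1, 42727 in Myocd-LSD1NF and 42672 in control cells, with median widths of 635, 624 and 561 bp. Their median -log10 q-values were 14.1, 14.0 and 10.3 in the same order, and the read depth behind each list is unknown. Peaks at least 2000 bp wide numbered 845 in Myocd-LSD1, 768 in Myocd-LSD1NF and 389 in control cells. In the control list all 7 smooth muscle markers looked up (Acta2, Tagln, Cnn1, Myh11, Smtn, Myocd and Mylk) had a promoter peak, against 1 of 5 endothelial markers (Kdr), 0 of 4 leukocyte markers and 1 of 4 fibroblast markers (Pdgfra). In the longer lists a promoter peak was found at 37 of 40 contractile genes, and also at 9 of 18 endothelial, 8 of 13 fibroblast and adventitial and 4 of 10 leukocyte genes, so marked promoters were not limited to smooth muscle genes. A mark on fewer cells and less of the mark per cell cannot be told apart in such pooled cells.

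**Figure D1:**
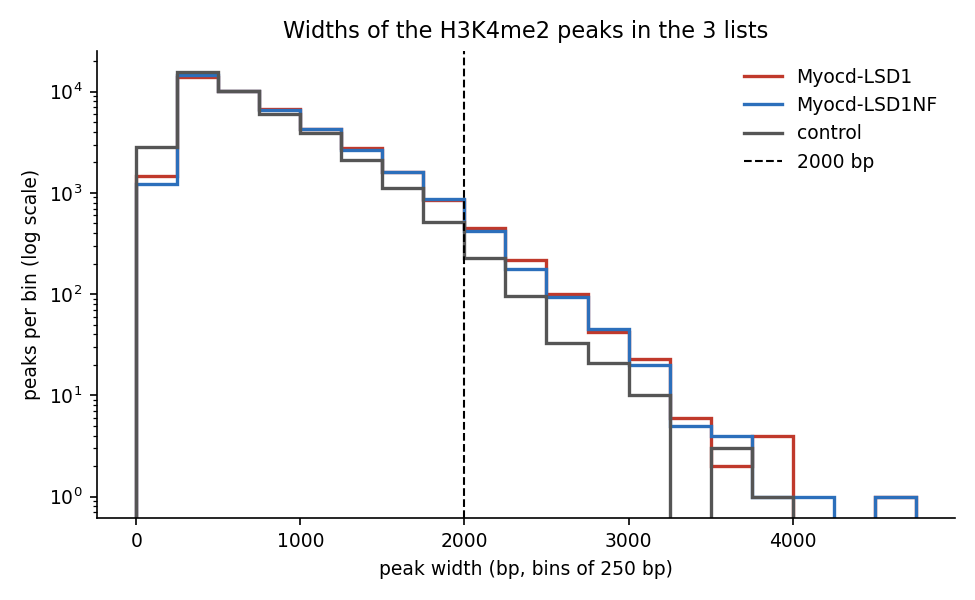
Number of H3K4me2 peaks per 250 bp bin of width (log axis) in the Myocd-LSD1, Myocd-LSD1NF and control lists, with the 2000 bp limit dashed. Right of that limit lie 845 Myocd-LSD1, 768 Myocd-LSD1NF and 389 control peaks, and the control line is the lowest until about 3500 bp, beyond which each list holds few peaks.

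The promoters of 5 genes whose domains differed between the fusion lines are shown first. C3 had the single domain with no peak in Myocd-LSD1NF, Efs and Hs3st3b1 had sites lower in Myocd-LSD1 over nearly the whole domain, and Wnt5a and Efna1 had sites higher in Myocd-LSD1. The sequences come from RefSeq and run 5′ to 3′ from 250 bases before to 50 bases after the TSS as placed on GRCr8. Capitals mark CG dinucleotides. The peaks are on build rn6, so these windows were not placed on the domains.
C3 promoter, GRCr8 chr9:2201290-2201589, minus strand: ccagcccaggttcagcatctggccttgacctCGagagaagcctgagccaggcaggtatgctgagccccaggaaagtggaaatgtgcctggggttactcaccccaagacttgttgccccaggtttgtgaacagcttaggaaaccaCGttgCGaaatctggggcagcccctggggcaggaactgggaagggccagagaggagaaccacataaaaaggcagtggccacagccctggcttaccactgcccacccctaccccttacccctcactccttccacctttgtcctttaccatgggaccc
Efs promoter, GRCr8 chr15:32371694-32371993, minus strand: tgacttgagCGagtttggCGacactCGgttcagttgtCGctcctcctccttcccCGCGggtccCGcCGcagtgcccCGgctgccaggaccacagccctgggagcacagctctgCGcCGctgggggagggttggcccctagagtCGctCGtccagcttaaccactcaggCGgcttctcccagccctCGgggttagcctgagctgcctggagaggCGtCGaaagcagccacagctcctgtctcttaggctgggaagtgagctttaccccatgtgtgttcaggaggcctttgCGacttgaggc
Hs3st3b1 promoter, GRCr8 chr10:49093136-49093435, minus strand: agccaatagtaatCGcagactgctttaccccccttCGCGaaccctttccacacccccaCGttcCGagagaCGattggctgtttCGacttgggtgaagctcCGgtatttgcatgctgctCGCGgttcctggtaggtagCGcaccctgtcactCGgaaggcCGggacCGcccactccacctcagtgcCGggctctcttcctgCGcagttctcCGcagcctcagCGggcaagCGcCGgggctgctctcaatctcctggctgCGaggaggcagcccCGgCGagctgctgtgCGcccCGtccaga
Wnt5a promoter, GRCr8 chr16:3703415-3703714, plus strand: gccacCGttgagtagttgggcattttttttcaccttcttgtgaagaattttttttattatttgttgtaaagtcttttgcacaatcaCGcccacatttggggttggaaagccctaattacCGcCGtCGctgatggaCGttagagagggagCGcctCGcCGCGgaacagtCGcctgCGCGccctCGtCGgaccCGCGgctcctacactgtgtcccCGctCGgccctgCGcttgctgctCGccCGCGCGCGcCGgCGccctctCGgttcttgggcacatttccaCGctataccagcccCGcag
Efna1 promoter, GRCr8 chr2:176986772-176987071, minus strand: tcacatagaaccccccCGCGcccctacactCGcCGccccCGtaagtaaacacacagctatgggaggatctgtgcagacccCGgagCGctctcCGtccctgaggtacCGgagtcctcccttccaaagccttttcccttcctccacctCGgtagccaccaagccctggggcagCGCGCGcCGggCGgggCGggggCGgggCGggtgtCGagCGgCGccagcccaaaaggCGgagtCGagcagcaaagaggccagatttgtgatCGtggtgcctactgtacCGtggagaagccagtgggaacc

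The C3 window held 3 CG dinucleotides, against 18 in Efs, 25 in Hs3st3b1, 30 in Wnt5a and 25 in Efna1, and a median of 7 over the 27457 promoters of the RefSeq table. The motif GGGCGG, read on both strands, was found 5 times in Efna1, once in Hs3st3b1 and not in the other windows, and 34.9% of all promoters in the table held it. CCAAT, likewise on both strands, was found in the Hs3st3b1 window and in 37.7% of all promoters. TATAAA and the CArG box, the site of serum response factor, had no match in these 5 windows, against 14.3% and 1.64% of all promoters. The RefSeq table also holds promoters of genes with no control promoter peak, so its values are no base for marked promoters.

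The domains lay mostly at promoters. By the authors' annotation 92.0% of domains (358 of 389, 88.9 to 94.5%) were within 3 kb of a TSS, against 77.6% of intermediate control peaks (1000 bp or wider but under 2000 bp) and 45.8% of all control peaks. A wide peak reaches a TSS more easily than a narrow one, and by the centre of the peak the shares were 91.3%, 76.7% and 45.1%. A TSS lay inside 75.1% of domains, 61.7% of the intermediate peaks and 23.9% of all control peaks. Of the 31 domains outside promoters, 17 were distal intergenic, 9 intronic and 3 exonic, and 1 each was in a 3′ UTR and a 5′ UTR. The distal ones included the domain nearest Fam109a, which was 3144 bp wide and kept in both fusion lists.

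Around the TSS the domains were lopsided. The 251 domains that spanned the TSSs of 1 gene reached a median of 1572 bp into the gene and 670 bp upstream, and 76.9% of them were longer on the downstream side. Another 41 domains (10.5%, 7.67 to 14.0%) held TSSs of 2 genes, against 4.86% of intermediate peaks and 1.49% of all control peaks. Only TSSs of transcripts named in the peak lists were counted, and each peak names a single transcript. Further genes could thus be missed, and the counts of domains over 1 and 2 genes depend on that set. In 38 of the domains TSSs lay on both strands, as in the pairs Gpr108 and Trip10, Acaa1 and Myd88, and Aurka and Cstf1, which were picked as examples after their values were seen. The 41 domains over TSSs of 2 genes reached a median of 1358 bp upstream and 938 bp downstream of the annotated TSS.

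**Figure D2:**
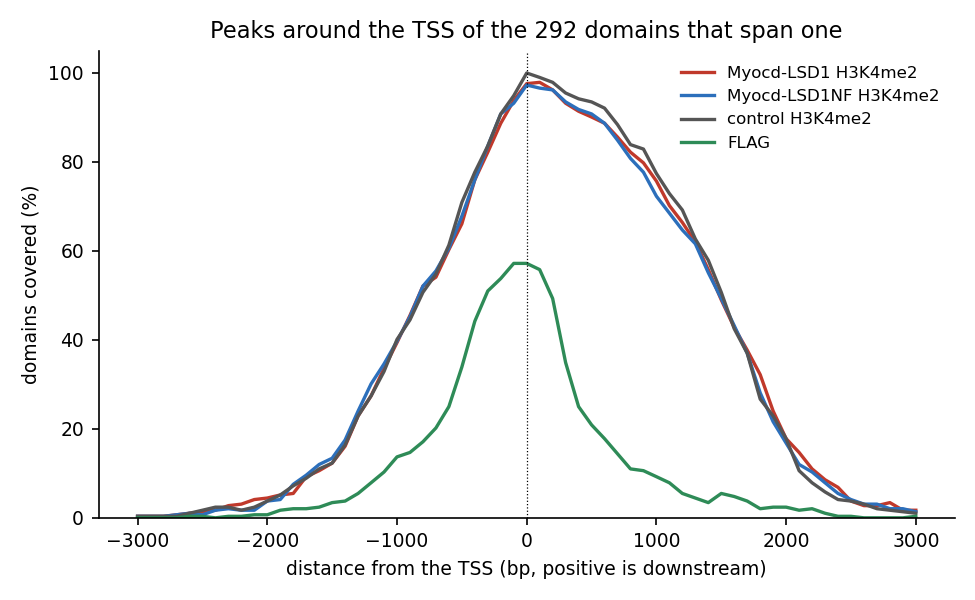
Share of the 292 domains over a TSS that were covered by a peak of each list, by distance from the TSS in bp, with positive values inside the gene. The 3 H3K4me2 lists run together and fall off more slowly downstream, at 1000 bp to 75.7% in Myocd-LSD1, 72.3% in Myocd-LSD1NF and 77.4% in control, while FLAG is high at the TSS (57.2%) and down to 9.25% at 1000 bp.

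In width the domains spanned 2000 to 3770 bp, with a median of 2193 bp, and together held 890.1 kb or 3.10% of the marked bases. Just inside the limit were the peaks of Ide (2000 bp), Cttn (2002 bp), Spen (2002 bp), Lrrc8c (2003 bp) and Galnt4 (2003 bp). Just outside were those of Dcdc5 (1998 bp), Rab35 (1997 bp), Slc41a1 (1997 bp), Il18bp (1996 bp) and Dusp8 (1996 bp). Broad did not mean highest by fold enrichment in the control list. The authors' fold enrichment, a peak's own value over background, had a median of 6.60 in domains, 8.35 in intermediate control peaks and 6.29 in all control peaks. By -log10 q-value the domains were highest, with a median of 29.8, against 25.7 in intermediate control peaks and 10.3 in all control peaks.

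The authors assigned the domains to 385 genes on 21 chromosomes, with 65 domains on chromosome 1. The widest lay 494 bp downstream of the TSS of Irs2, which encodes an insulin receptor substrate, at rn6 chr16:83825009-83828778 (3770 bp). It was followed by the domains of Trim25 (3602 bp), a ubiquitin ligase of antiviral signalling, and LOC102552122 (3512 bp). Next came Gpr108 (3511 bp), St3gal1 (3227 bp), a sialyltransferase, and Efna1 (3184 bp), an ephrin ligand of Eph receptors. Piezo1 (3145 bp), a mechanosensitive cation channel of vascular cells, Fam109a (3144 bp) and Spry4 (3125 bp), an inhibitor of growth factor signalling, were also among the 10 widest. Bad, Plec, Rai1 and Smad3 each had 2 domains.

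Contractile genes were looked up first. Of 40 SMC contractile genes with a control peak, 2 had a domain (5.0%), against 385 of 18516 genes named in the control list (2.08%). They were Myl9, the regulatory light chain of smooth muscle myosin, and Smtn, smoothelin. Among the 18516 genes, 14078 had a promoter peak and 7239 a peak of at least 1000 bp. Of the 40 contractile genes, 37 and 21 did. The 2.08% is thus not a like base for this or the other gene lists. The Myl9 domain at chr3:152857016-152859423 (2408 bp) was covered to 41.0% in Myocd-LSD1, in 2 pieces, and to 67.6% in Myocd-LSD1NF, in 1 piece, and held no FLAG peak and no site of the authors' deposited table. The Smtn domain at chr14:83773064-83775528 (2465 bp) was covered to 88.6% and 88.4%. It was split in both lists, at overlapping gaps of 282 bp in Myocd-LSD1 and 286 bp in Myocd-LSD1NF. In the control list the widest promoter peaks of the other smooth muscle markers were narrower. They were 1800 bp at Myocd, 1312 bp at Tagln, 972 bp at Acta2, 953 bp at Cnn1, 833 bp at Mylk and 361 bp at Myh11.

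Among 35 SMC regulators with a control peak, 2 had a domain (5.71%, beside 2.08% of all genes named in the control list), Smad3, a transducer of TGF-beta signals, and Foxo1, a forkhead factor downstream of insulin signalling. Of the 2 Smad3 domains, that of 2203 bp was kept in both fusion lists, with 92.6% cover in Myocd-LSD1 and 99.5% in Myocd-LSD1NF. The other, of 2180 bp, was split in both, with cover of 75.5% and 82.8%. The Foxo1 domain (2368 bp) was kept in Myocd-LSD1 with 75.1% cover and split in Myocd-LSD1NF with 86.5%.

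In the other lists the number of members with a domain was between 0 and 4, beside the 2.08% of all genes named in the control list. That base has the limit given for the contractile genes. Matrix genes had 4 of 45 (8.89%; Col5a1, Emilin1, Loxl2 and Loxl4), and their domains were covered to at least 91.5% in Myocd-LSD1 and 98.4% in Myocd-LSD1NF. Immediate early genes had 3 of 27 (11.1%; Nr4a2, Klf2 and Fosb) and TGF-beta and BMP signalling genes 3 of 38 (7.89%; Grem1, Smad3 and Smad6), with cover of at least 93.6% in both fusion lists for all but Grem1 and Smad3. Cell cycle genes had 2 of 33 (6.06%), the mitotic kinases Aurka and Plk1. Vascular channels and receptors had 2 of 30 (6.67%), Piezo1 and the cyclic GMP phosphodiesterase Pde5a, and H3K4 methylation genes 1 of 24 (4.17%), Men1, the menin subunit of MLL complexes. Fibroblast genes had 1 of 12 (8.33%; Pi16, by a domain over 3 kb from its TSS). HOX genes (0 of 31), mesenchymal transcription factors (0 of 45), osteogenic and chondrogenic genes (0 of 20) and endothelial genes (0 of 16) had none, nor had leukocyte (0 of 7), neural (0 of 12) and skeletal and cardiac muscle genes (0 of 13).

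Most of the domains' bases stayed marked in both fusion lines, with 92.8% under a Myocd-LSD1 peak and 93.4% under a Myocd-LSD1NF peak, against 90.5% and 90.3% of the bases of intermediate control peaks and 79.1% and 80.2% of those of all control peaks. A domain was called kept when 1 peak piece of the other list covered at least 50% of it, trimmed when 1 piece covered less, split when 2 or more separate pieces lay in it, and lost when no base was covered. In Myocd-LSD1 339 domains were kept (87.1%, 83.4 to 90.3%), 48 split (12.3%, 9.24 to 16.0%), 2 trimmed and 0 lost, which allows a share of up to 0.944%. In Myocd-LSD1NF 348 were kept (89.5%, 86.0 to 92.3%), 38 split (9.77%, 7.01 to 13.2%), 2 trimmed and 1 lost. Intermediate control peaks were kept in a larger share, 93.6% in Myocd-LSD1 and 92.9% in Myocd-LSD1NF, and all control peaks in 75.2% and 77.2%. The domains were kept in both lists in 316 cases (81.2%), split in both in 17, split in Myocd-LSD1 alone in 31 and split in Myocd-LSD1NF alone in 21.

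Median cover was 97.3% of a domain in Myocd-LSD1 (quartiles 89.7 and 100) and 98.1% in Myocd-LSD1NF (quartiles 90.4 and 100), close to the medians of 97.6% and 98% for intermediate control peaks. Cover was greater in Myocd-LSD1 for 151 domains, greater in Myocd-LSD1NF for 169 and equal for 69. A peak of at least 2000 bp in the fusion list overlapped 281 domains in Myocd-LSD1 (72.2%) and 291 in Myocd-LSD1NF (74.8%). Narrower peaks were lost more often: 1.67% of intermediate control peaks and 21.1% of all control peaks had no overlap in Myocd-LSD1, and 2.44% and 19.2% had none in Myocd-LSD1NF. A narrow peak has fewer bases that must all be uncovered to be lost. Control peaks under 1000 bp also had a lower median -log10 q-value, 8.32 against 29.8 in domains. The part of width and peak strength in loss and cover was not tested. Splitting was less frequent in narrower peaks. It was seen in 2.41% of the intermediate peaks and 0.675% of all control peaks in Myocd-LSD1, and in 2.63% and 0.708% in Myocd-LSD1NF, and a wide peak has more room for a gap.

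Because the domains were chosen for width in control, narrower cover elsewhere is partly fixed by that choice, and the same rule was applied to the fusion lists. The 845 domains chosen in Myocd-LSD1 had a median cover of 83.1% in control, with 57.6% kept and 39.5% split. The 768 chosen in Myocd-LSD1NF had 85.2% in control, with 59.0% kept and 40.0% split. Between the fusion lists, domains chosen in Myocd-LSD1 had a median cover of 92.8% in Myocd-LSD1NF, and those chosen in Myocd-LSD1NF one of 95.0% in Myocd-LSD1. Splitting was thus more frequent for fusion domains in control than for control domains in the fusion lists. Depth and peak calling differ between lists by an unknown amount, and their part in this was not tested.

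The splits were short. The 48 gaps in Myocd-LSD1 had a median length of 310 bp (232 to 1200 bp) and the 39 in Myocd-LSD1NF 320 bp (254 to 897 bp). A TSS lay in 4 gaps of each list, and a FLAG peak overlapped 7 gaps in Myocd-LSD1 and 9 in Myocd-LSD1NF. The longest was in the Whrn domain (whirlin, a scaffold protein), where Myocd-LSD1 had pieces of 661 and 577 bp beside a gap of 1200 bp over the TSS, with 47.2% of the domain covered, and Myocd-LSD1NF had 3 pieces and 73.6% cover. The Piezo1 domain at chr19:55364667-55367811 was covered to 79.2% in Myocd-LSD1, in pieces of 562 and 1930 bp, and to 99.7% in Myocd-LSD1NF by a peak of 3137 bp. Trim25 was split in Myocd-LSD1 with 89.7% cover and kept in Myocd-LSD1NF with 99.6%.

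**Figure D3:**
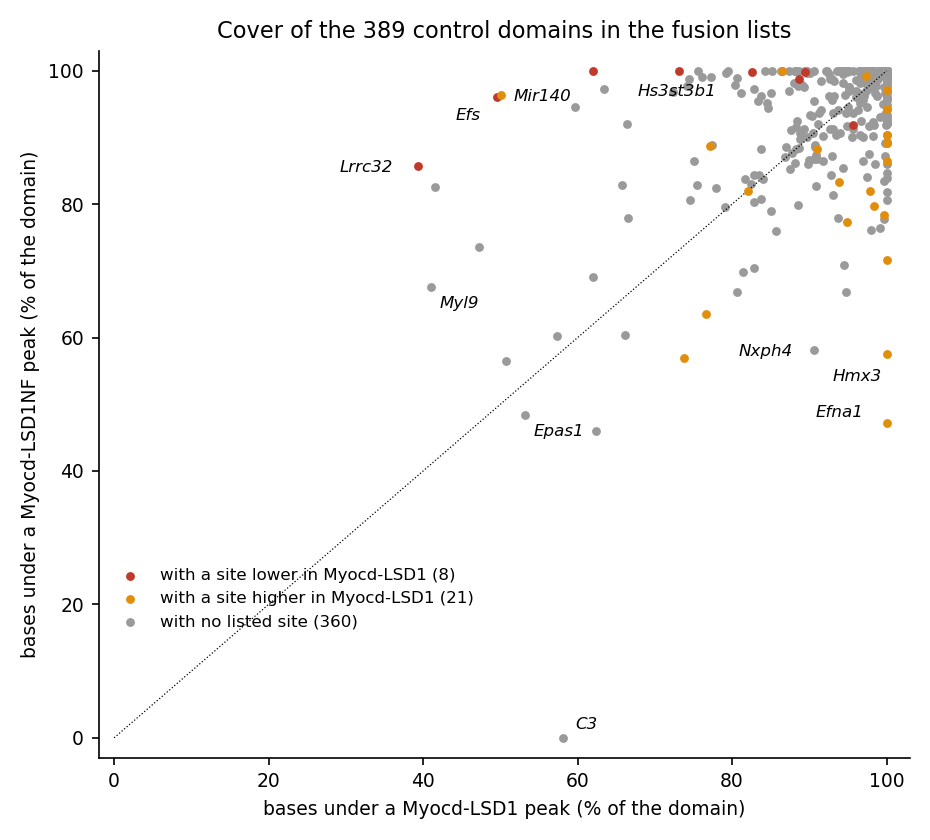
Share of each of the 389 domains' bases under a Myocd-LSD1 peak (x axis, %) and under a Myocd-LSD1NF peak (y axis, %), coloured by the sites of the authors' deposited table. Most domains lie near 100% on both axes, and C3 lies at 58.1% and 0%.

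Cover differed by over 20 percentage points between the fusion lists in 30 domains, 11 with more in Myocd-LSD1 and 19 with more in Myocd-LSD1NF. The largest difference was at C3, the central complement component, whose domain at chr9:9720573-9723021 (2449 bp) spans its TSS. It had a Myocd-LSD1 peak of 1484 bp over 58.1% of it, no peak in Myocd-LSD1NF and no FLAG peak. The authors' deposited table lists no site there, so a replicated difference is not shown for it. Efna1 was covered to 100% in Myocd-LSD1 and to 47.2% in Myocd-LSD1NF, where a gap of 897 bp separated 2 pieces. Hmx3, a homeobox gene, had 100% and 57.5%, Nxph4, a neurexophilin, 90.6% and 58.2%, and Grem1, an inhibitor of BMP ligands, 100% and 71.7%. Bcl2l12, Elmsan1, LOC690000, Keap1, the sensor of oxidative stress, and Snrpa1 followed with differences of 21.8 to 27.9 points.

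In the other direction the largest differences were at Efs, an adaptor of Src family kinases, with 49.6% in Myocd-LSD1 and 96.1% in Myocd-LSD1NF, and Lrrc32, which docks latent TGF-beta at the cell surface, with 39.4% and 85.7%. The domain in an intron nearest Mir140 had 50.1% and 96.4%, and that nearest LOC102551408 41.6% and 82.5%. Pkdcc, a secreted kinase, had 62.0% and 100%, Nhs 59.6% and 94.6%, and Mlycd, malonyl-CoA decarboxylase, 63.4% and 97.2%. Hs3st3b1, a sulfotransferase of heparan sulfate, and Myl9 had differences of 26.9 and 26.6 points, and Whrn 26.4. Domains under 50% covered numbered 5 in Myocd-LSD1 (Efs, Lrrc32, Myl9, Whrn and LOC102551408) and 4 in Myocd-LSD1NF, among them C3, Efna1 and Epas1. Epas1, a hypoxia-inducible factor, was low in both lists, with 53.2% in Myocd-LSD1 and 48.4% in Myocd-LSD1NF, and was picked after its values were seen.

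Replicated differences between the fusion lines were sought in the authors' deposited table, which lists sites at a false discovery rate (FDR) of at most 0.05. Of its sites lower in Myocd-LSD1, at least 1 overlapped 8 domains by the authors' deposited table (2.06%, 0.892 to 4.01%), against a background of 4.40% of all control peaks. Higher sites in the authors' deposited table overlapped 21 domains (5.40%, 3.37 to 8.13%), against a background of 5.02%, which lies within that interval. The other 360 domains overlapped no listed site. Of the intermediate control peaks, 3.48% overlapped a lower and 5.83% a higher site of the authors' deposited table. A wide peak has more room for a site. Per kb, lower and higher sites of the authors' deposited table together numbered 0.0337 in domains, 0.0721 in intermediate peaks and 0.140 in all control peaks. A site covered a median of 94.3% of its domain, so a count per kb is lower for wide peaks partly by construction. Per peak, 7.46% of domains, 9.31% of intermediate peaks and 9.42% of all control peaks overlapped a site of the authors' deposited table. The sites of the authors' deposited table in domains were also smaller in size, with median log2 differences of -1.28 for 9 lower and 0.93 for 21 higher sites, against -1.94 and 1.91 for the sites in any control peak. Their signal was higher: the median log2 concentration of the authors' deposited table in the line with less signal was 7.25 for lower and 7.48 for higher sites in domains, and 3.38 and 3.76 for those in any control peak. The part of signal level in the size of the differences was not tested.

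Of the domains with a lower site in the authors' deposited table, that of Efs (chr15:33588752-33590773) had the largest difference between Myocd-LSD1 and Myocd-LSD1NF. The authors' deposited table gives its mean log2 concentration as 5.71 in Myocd-LSD1, against 8.79 in Myocd-LSD1NF, and a log2 difference of -3.07 (FDR 4.18e-23). There the Myocd-LSD1 peak was 1003 bp wide and the Myocd-LSD1NF peak 2777 bp. Lrrc32 held 2 lower sites in the authors' deposited table, of -2.03 (FDR 2.32e-06) and -1.41 (FDR 0.0461), and Hs3st3b1 1 of -1.59 (FDR 1.52e-10). At Hs3st3b1 pieces of 451 and 1079 bp in Myocd-LSD1 stood against a single peak of 2168 bp in Myocd-LSD1NF. The authors' deposited table places the rest of the lower sites at Dmpk (-1.28), the myotonic dystrophy kinase, Pkdcc (-1.13), Zfp503 (-0.85), a distal region nearest Cyp46a1 (-0.84), the cholesterol 24-hydroxylase gene, and Dlg4 (-0.68), a synaptic scaffold. Cover in the peak lists was less in Myocd-LSD1 in 7 of these 8 domains, the exception being Zfp503 with 95.7% in Myocd-LSD1 and 91.9% in Myocd-LSD1NF; both readouts come from the same libraries.

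**Figure D4:**
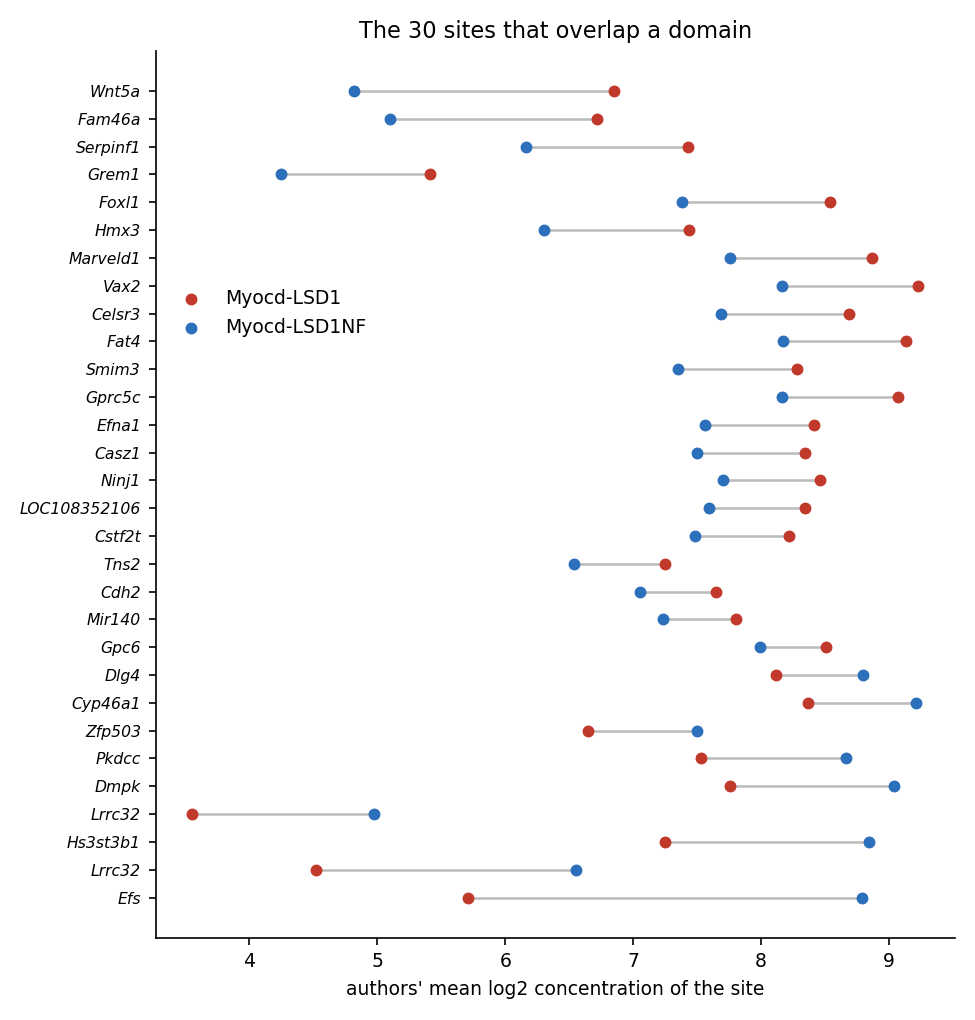
Mean log2 concentration in Myocd-LSD1 and Myocd-LSD1NF, as in the authors' deposited table, for the 30 sites that overlap a domain, named by the domain's gene (Lrrc32 holds 2). The upper 21 sites are higher in Myocd-LSD1, by 0.52 at Gpc6 to 2.03 at Wnt5a, and the lower 9 are lower, by up to -3.07 at Efs.

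Of the domains with a higher site, that of Wnt5a, a ligand of non-canonical Wnt signalling, had the largest difference in the authors' deposited table, with a log2 concentration of 6.85 in Myocd-LSD1, against 4.82 in Myocd-LSD1NF, and a difference of 2.03 (FDR 2.91e-08). Its domain at chr16:4468056-4470080 was covered to 73.8% in Myocd-LSD1 and 56.9% in Myocd-LSD1NF. Next in the authors' deposited table came Fam46a (1.62), Serpinf1 (1.27), which encodes the secreted factor PEDF, and Grem1 (1.16, FDR 0.0402). The transcription factor genes Foxl1 (1.15, at an intronic domain for which it is the nearest gene), Hmx3 (1.14) and Vax2 (1.07) and Marveld1 (1.11) followed in the authors' deposited table. The atypical cadherins Celsr3 (1.00) and Fat4 (0.96), which act in planar polarity, completed the 10 largest.

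At Efna1 the authors' deposited table gives a difference of 0.85 (FDR 0.00121) for a site over 38.9% of the domain, on the side where Myocd-LSD1NF had less cover. Cover was greater in Myocd-LSD1 in 17 of the 21 domains with a higher site. The Mir140 domain was among the 4 exceptions: the authors' deposited table lists a site over 36.4% of it as higher by 0.58 (FDR 0.0459), while its cover was 50.1% in Myocd-LSD1 and 96.4% in Myocd-LSD1NF. Over the 30 sites the share of the domain under the site had a median of 94.3%, and the lowest, 10.9%, was at Tns2, named here after its value was seen.

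**Figure D5:**
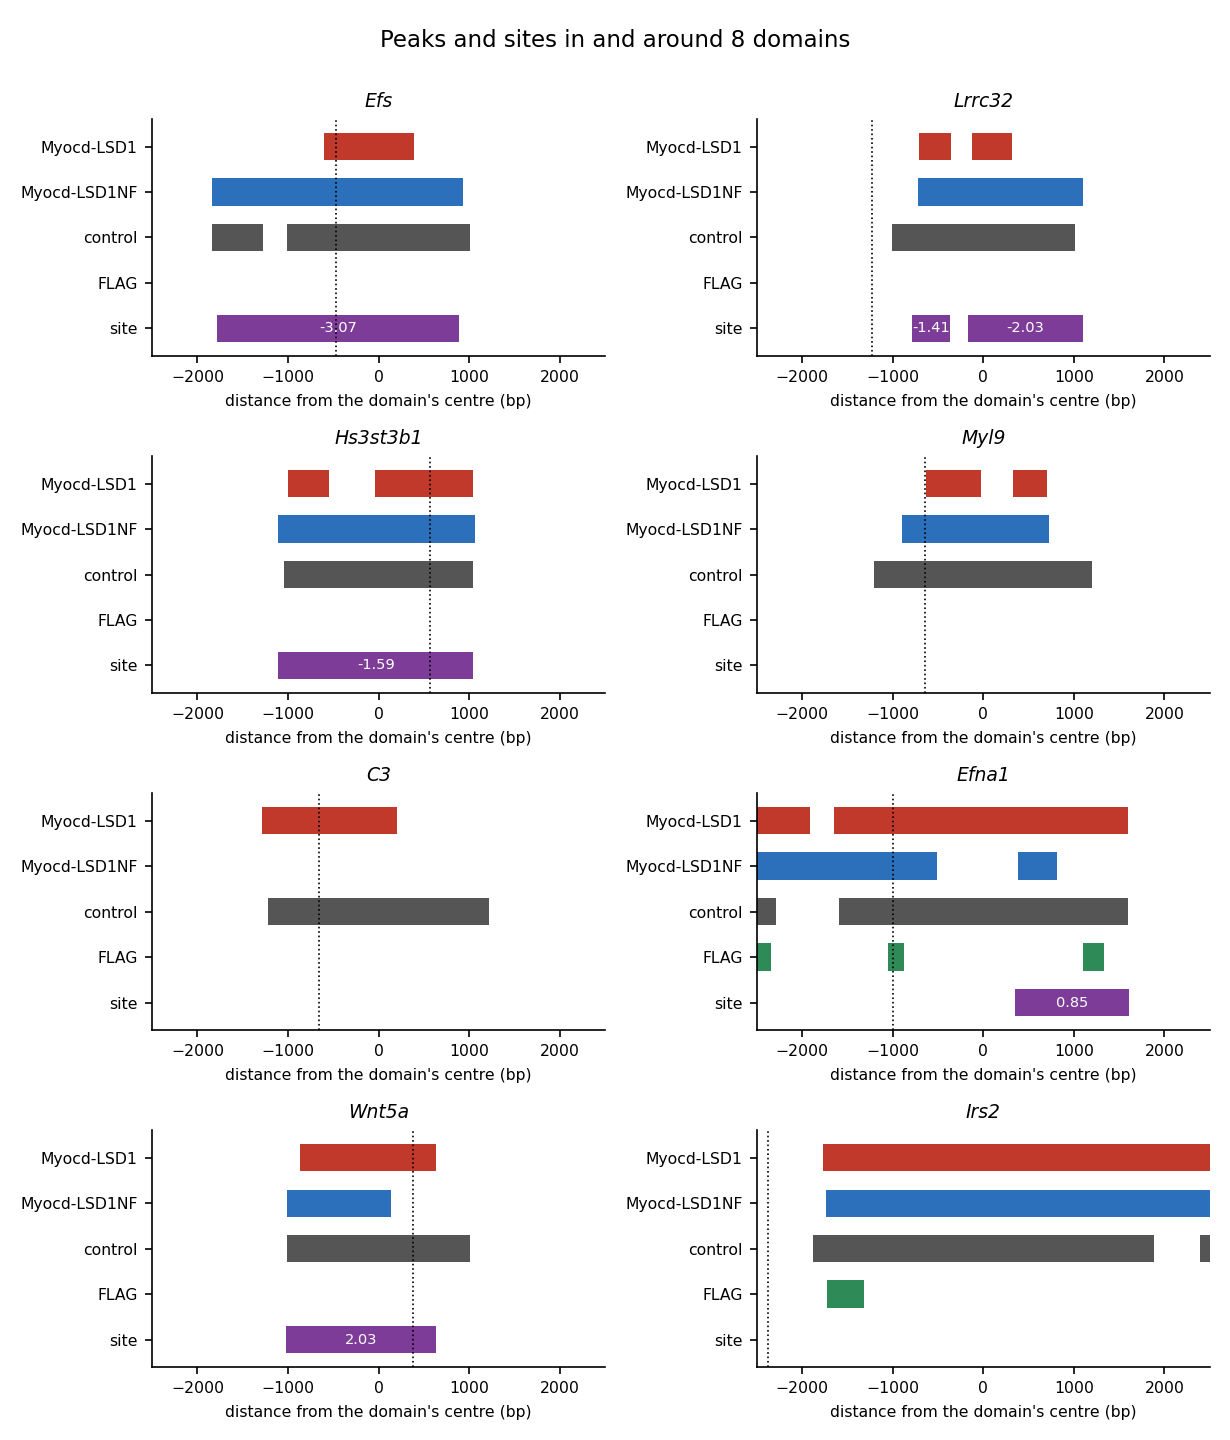
Peaks of the Myocd-LSD1, Myocd-LSD1NF and control H3K4me2 lists, FLAG peaks and the authors' sites (with their log2 difference) around 8 domains, by distance from the domain's centre in bp on the rn6 plus strand, with bars ending at 2500 bp on either side and the TSS dotted. Efs, Lrrc32 and Hs3st3b1 have shorter cover in Myocd-LSD1 than in Myocd-LSD1NF, C3 has none in Myocd-LSD1NF, and Irs2 has a single wide peak in each fusion list.

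FLAG peaks were found in 329 domains (84.6%, 80.6 to 88.0%), against 70.5% of intermediate control peaks and 39.8% of all control peaks. FLAG was mapped only in cells carrying the tagged Myocd-LSD1 fusion. Binding of the fusion and FLAG signal unrelated to it therefore cannot be told apart. Width alone gives a domain more room for a FLAG peak. Per kb the order was reversed, with 0.455 FLAG peaks in domains, 0.565 in intermediate peaks and 0.605 in all control peaks. By bases the order differed again, with 28.8% of domain bases under a FLAG peak, 31.3% of those of intermediate peaks and 25.8% of those of all control peaks. The summits of the 405 FLAG peaks in domains lay a median of 329 bp from the nearest TSS. Of these summits 61.7% were within 500 bp of a TSS, against 43.0% of FLAG peaks in any control peak. A TSS lay inside 75.1% of domains and 23.9% of all control peaks, and the part of this in the FLAG distances was not tested. The distances were not taken for FLAG peaks in intermediate peaks. Domains with 3 FLAG peaks were those of Acbd4, Stat6, Bcl2l11, Pcyt2, Tfeb, Rps6ka1, Pitpnc1 and Nlrx1. At Stat6, a cytokine-activated transcription factor, the 3 FLAG peaks covered 48.6% of a domain that was fully covered in both fusion lists. At Bcl2l11, which encodes the cell death factor Bim, they covered 58.1% of a domain split in Myocd-LSD1 (74.4% cover) and kept in Myocd-LSD1NF (98.7%).

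FLAG was also counted by what became of the domain. Of the domains split in Myocd-LSD1 70.8% had a FLAG peak (34 of 48, 55.9 to 83.0%), against 86.7% of those kept (294 of 339, 82.6 to 90.2%). In Myocd-LSD1NF the shares were 78.9% of split domains (30 of 38, 62.7 to 90.4%) and 85.6% of kept ones. By the sites of the authors' deposited table, a FLAG peak lay in 3 of the 8 domains with a lower site and in 12 of the 21 with a higher one, against 314 of the 360 with none listed. Domains named above without a FLAG peak included Efs, Lrrc32, Hs3st3b1, Myl9, C3 and Wnt5a. Others named above held FLAG peaks, among them Efna1, Fam46a, Vax2 and Fat4 with 2 each. Dmpk, Zfp503 and the distal region nearest Cyp46a1 held 1 each. FLAG peaks were called in a list of their own with a median -log10 q-value of 4.59, and a FLAG signal under the caller's limit would not be listed.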

How the data were processed

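H3K4me2 (9 samples) and FLAG (4 samples) were profiled by CUT&Tag. Bowtie2, deepTools, MACS2, ChIPseeker, DiffBind and build rn6 are named, without versions or settings, per the submitters' processing notes. The authors deposited 1 annotated peak list per group. Its peaks are named after 1 alignment, and no source used here says whether it pools the replicates. The fold (fold enrichment over background) and -log10 q-value of a peak are the authors' values, per the file headers. The authors' deposited table of Myocd-LSD1 against Myocd-LSD1NF gives mean log2 concentrations, their log2 difference (Myocd-LSD1 minus Myocd-LSD1NF), a p-value and an FDR.

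Domains were control peaks of at least 2000 bp. Cover, pieces and gaps were computed from overlaps of at least 1 bp. TSSs counted in domains and gaps were those of transcripts named in the peak lists, which is not a full set. The code recovered 100% of the fates of 400 simulated intervals. No test beyond the authors' was made. Members, gene lists (479 of 516 entries matched a gene of the lists, 5 by synonym) and the rule for named genes were chosen with earlier results of these data known. The rule took the 10 widest domains, the 10 largest cover differences and sites in each direction, the domains with most pieces or FLAG peaks, contractile and regulator members, up to 4 of any other list and the 5 peaks on each side of the limit. Comparing the base composition of the domains' promoters was void, because only 79.0% of 291 genes had a sequence in the RefSeq table. A few genes that the rule takes are not reported here. Alternatives are given in the closing section. The scripts ran under Python 3.11.15, with pandas 2.3.3, numpy 2.4.6, scipy 1.17.1 and matplotlib 3.10.9.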

Additional observations from a re-analysis of the deposited data

How the results depend on the processing

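No paired analysis was possible because each line had 1 peak list and the authors' deposited table holds no values per sample; for the same reason no replicate could be left out. Domains numbered 2034 at 1500 bp, 14 at 3000 bp and 1025 with control peaks within 500 bp joined. The share at promoters was 88.7% within 1 kb, against 36.9% of narrower control peaks (45.3% within 3 kb, 44.6% by the peak's centre). With peaks within 500 bp joined, 97.9% of domains were kept and 1.54% split in Myocd-LSD1 (median cover 98.2%), and 98.2% kept and 1.03% split in Myocd-LSD1NF (median 98.7%). With the 50% of peaks with the strongest q-values, 7.46% were split and 2.57% lost in Myocd-LSD1, and 5.40% split and 1.54% lost in Myocd-LSD1NF. Asking for 80% cover left 81.7% kept and 5.91% trimmed in Myocd-LSD1, and 84.6% kept and 5.40% trimmed in Myocd-LSD1NF. At 1500 bp, 92.2% were kept and 6.05% split in Myocd-LSD1, and 6.15% split in Myocd-LSD1NF. At 3000 bp, with 14 domains, 78.6% were kept, 21.4% split and 0% trimmed in each list, none (0%) was lost in Myocd-LSD1NF, and median cover was 99.0% and 99.7%. Domains chosen in the other fusion list had a median cover of 95.0% (Myocd-LSD1) and 92.8% (Myocd-LSD1NF). The strongest 50% of FLAG peaks lay in 67.4% of domains, at 0.313 per kb. In the authors' deposited table, 5 domains held a lower site at an FDR of at most 0.01 and 5 at a log2 difference of at least 1 in size; 9 held a higher site at that size. Those shares of all control peaks were 2.67% and 3.86% for lower and 3.54% and 4.15% for higher sites, and 3.96% and 4.50% with the site's centre inside. By any TSS within 3 kb, 2 H3K4 methylation genes (Men1 and Setd7) and 0 fibroblast genes had a domain. The 3.10% of marked bases studied here give few domains per group of genes, and depth per list is unknown.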
